A study of Mus musculus with 2 samples.

Results

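Endothelial-like barcodes made up 221 of the 8094 barcodes that passed quality limits in the WT library, a share of 2.73% (exact binomial 95% interval 2.39 to 3.11%). The share moved with the mitochondrial limit, from 1.24% at a limit of 5% to 4.49% at 20%, and the limit of 10% used here left out 218 of the 439 barcodes that met the endothelial criteria. Barcodes were kept from 1000 UMIs (unique molecular identifiers, each standing for 1 captured transcript) and 500 genes upwards, with no more than 10% of UMIs from mitochondrial genes. It was a member when it held 5 or more UMIs of Cdh5, Kdr, Egfl7 and Emcn together, at least 2 of these genes, and under 0.3% of its UMIs from the collagen and matrix genes Col1a1, Col1a2, Col3a1 and Dcn. All 4 genes were detected in 163 members, 3 in 45 and 2 in 13. The members were chosen by these transcript counts, so the levels below are a description, and no test was made of any difference.

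The study sorted macrophages by the surface proteins CD45, CD11b and CD64 from hearts of mice 3 days after an infarct was made, taking the infarct with its border zone. The series holds 1 droplet library (10x Genomics 3′ v3) from WT mice and 1 labelled CD40 KO, and together they hold 18770 barcodes. The number of mice pooled in each library, their age and the knock-out allele are not stated in the sources used. By the same limits the library labelled CD40 KO held 11 members among 7930 kept barcodes (0.139%, 0.0693 to 0.248%), too few to describe, so everything below concerns the WT library alone.

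Endothelial cells line blood vessels, and in the heart most of them form the capillaries that pass oxygen and fatty acids to the muscle. Vascular endothelial growth factor acts on them through the receptors Kdr and Flt1, while Notch, Tie and apelin signals set whether a vessel sprouts, matures or rests. After an infarct the capillary bed of the border zone is a site of sprouting, of leukocyte entry and of new basement membrane.

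Among the genes of the rule, Egfl7 carries a regulatory sequence that is well known for this cell type. Egfl7 (ENSMUSG00000026921, chr2:26580014-26593120, plus strand, GRCm38) encodes a secreted matrix protein of vessels and is the host gene of miR-126, the microRNA typical of endothelium. The mature sequence (RefSeq, GRCm38.p6, chr2:26591402-26591423, plus strand) lies in an intron of the 7 protein-coding Egfl7 transcripts of GENCODE that span it, and in an exon of 1 transcript with a retained intron, and is shown with its seed, bases 2 to 8, in capitals.

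mmu-miR-126a-3p: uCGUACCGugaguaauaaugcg

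Polyadenylated 3′ tags do not measure the mature microRNA, so its level in the members is not known, and the Egfl7 values below are those of the host transcript.

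Since the pan-endothelial genes were high together in the members, the 250 bases before the RefSeq start of 3 of them are shown, with matches on either strand to CAGGAA in capitals, likewise matches to the second form searched, which is CCGGAA. Both are core letters of ETS factor sites. Tek and Tie1 encode the paired receptors of the angiopoietin system, and Cldn5 the main claudin of endothelial tight junctions. The stretches lie at chr4:94739039-94739288 on the plus strand for Tek, chr4:118489850-118490099 on the minus strand for Tie1, and chr16:18776597-18776846 on the plus strand for Cldn5 (GRCm38.p6).

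Tek: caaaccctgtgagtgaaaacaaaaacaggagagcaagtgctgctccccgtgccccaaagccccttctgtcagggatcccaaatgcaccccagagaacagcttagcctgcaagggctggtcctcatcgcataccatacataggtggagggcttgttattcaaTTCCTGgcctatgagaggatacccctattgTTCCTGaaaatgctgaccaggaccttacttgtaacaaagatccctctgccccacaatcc

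Tie1: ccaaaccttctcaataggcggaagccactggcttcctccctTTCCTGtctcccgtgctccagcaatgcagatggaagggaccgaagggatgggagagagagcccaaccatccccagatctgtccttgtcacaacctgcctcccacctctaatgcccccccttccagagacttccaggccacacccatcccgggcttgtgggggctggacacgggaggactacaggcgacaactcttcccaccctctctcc

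Cldn5: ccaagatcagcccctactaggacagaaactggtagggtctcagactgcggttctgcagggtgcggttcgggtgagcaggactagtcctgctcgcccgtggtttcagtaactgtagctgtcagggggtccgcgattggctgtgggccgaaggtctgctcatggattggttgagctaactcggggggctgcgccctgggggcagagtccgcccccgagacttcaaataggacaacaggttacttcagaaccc

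Tek had 2 such matches, Tie1 1 and Cldn5 0. Of the 12 promoters found for 11 of the 20 pan-endothelial genes, 8 (66.7%) held these letters, against 35.1% of all 32851 promoters of the same length. The same letters were in 10 of 19 promoters of the macrophage list and in 4 of 18 of the endothelial transcription factor list. The other letters searched on both strands were AGATAA for GATA factors, a pair of forms for SOX factors (ACAAAG and a variant of it, which is ACAATG), and GTAAACA for FOX factors. They were present in 0, 3 and 0 of the 12 promoters against 9.99%, 25.2% and 3.17% of all. A match is a run of letters and not a measured site.

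The label was checked against endothelial genes that the rule did not use. Fabp4, a fatty acid carrier of capillary endothelium, was detected in 220 of the 221 members, and Pecam1, an adhesion protein of endothelial junctions, in 205. In the 6709 macrophage-like barcodes Fabp4 was detected in 3721 (55.5%) and Pecam1 in 656 (9.78%). Detection of Fabp4 alone therefore says little about the label. Summed over all members, Pecam1 stood at 669 CPM (counts per 1000000 UMIs), against 9.33 in 6709 macrophage-like and 14.97 in 149 fibroblast-like barcodes of the same library. Cdh5, the VE-cadherin of endothelial junctions, stood at 941 CPM against 2.01 and 0.749, values that the rule sets, since it selected members by this gene and limited it in both other classes. Macrophage-like barcodes were those with 5 or more UMIs of Csf1r, Adgre1, Fcgr1, C1qa, C1qb and C1qc, and fibroblast-like ones those with 5 or more UMIs and 0.3% or more of UMIs from the 4 collagen and matrix genes. Both had 2 or more of their genes detected and under 5 UMIs of the 4 rule genes. At the edge of the rule, 8 members had 5 and 11 had 6 UMIs of the rule genes, while 14 kept barcodes had 4 and 13 had 3. Collagen alone kept out 6 barcodes, the lowest of them at 0.668% against 0.0841% in the highest member.

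Members fell into unlike parts by their macrophage transcripts. Over a list of 20 macrophage genes, 175 members carried at most 1% of their UMIs from the list (median 0.0856%, highest 0.784%), and 46 carried more (lowest 1.18%, median 3.30%, highest 6.95%). Macrophage-like barcodes ranged from 0.342 to 20.6%, with a median of 3.70%. The limit of 1% lies in a thin stretch, with 4 members between 0.5 and 1% and 8 between 1 and 2%. The 46 were deeper, at a median of 25753 UMIs against 6321 in the 175 and 14165 in macrophage-like barcodes, and held 1324134 of the members' 3064160 UMIs. Their pan-endothelial share was lower, with a median of 0.175% of UMIs against 0.903%.

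**Figure D1:**
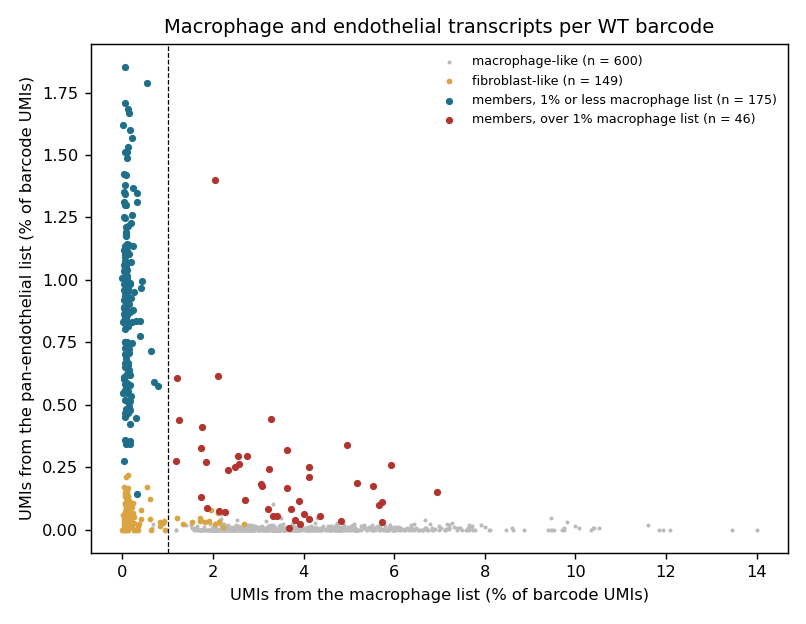
Each point is a WT barcode, with its macrophage-list UMIs on the x axis and its pan-endothelial-list UMIs on the y axis, both as % of its UMIs; 600 macrophage-like barcodes drawn at random are shown with all 149 fibroblast-like ones. The 175 members left of the dashed line at 1% sit apart from the macrophage-like barcodes, and the 46 to its right spread between both.

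In the 46, the 20 macrophage genes stood at 72.8 to 101% of their macrophage-like level, with a median of 86.8%. The same genes stood at 1.02 to 6.77% (median 2.22%) in the 175, and at 6.52 to 11.7% in fibroblast-like barcodes, which should lack them. The 175 and the 46 were divided by this same list, so their levels of these genes are largely set by that division. The fibroblast-like class was not divided at 1%, with 136 of its 149 barcodes at or under that limit, so its levels are not measured in the same way as those of the 175. By barcode, the macrophage-list share had a median of 0.105% in the fibroblast-like class and 0.0856% in the 175. None of the 20 was at 0 in the 175. Scrublet, which scores how far a barcode looks like the sum of 2 others, put 38 of the 46 among the 903 highest scores of the 10624 deposited WT barcodes, against 2 of the 175 and 770 of the 6709 macrophage-like barcodes. What the 46 are was not tested. Levels are therefore given for the 175, with the 46 beside them where they differ, since a sum over all 221 carries the macrophage transcripts of the deeper barcodes.

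The transcripts of the sort proteins followed the same division. Ptprc, which encodes CD45, stood at 16.7 CPM (exact Poisson interval 11.2 to 23.9) in the 175, 413 in the 46 and 512 in macrophage-like barcodes. Itgam, for CD11b, stood at 6.32, 155 and 172 CPM, and Fcgr1, for CD64, at 1.72, 176 and 192 CPM in the same order. After each barcode was thinned to 2000 UMIs, 0 of 170 members of the low group had 3 or more UMIs of these genes, for which the limit of 3 counts is a share of 1.76% and the exact binomial upper bound 2.15%, both of barcodes with such UMIs, against 10 of the 46 (21.7%) and 27.2% of macrophage-like barcodes. Unthinned, the counts were 3 of 175 and 44 of 46. All intervals cover counting error only.

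The 175 had a median mitochondrial share of 6.47% of UMIs, against 2.41% in macrophage-like barcodes, and the deepest of them (122297 UMIs) held 7.03% of their UMIs. No member shared its barcode sequence with the library labelled CD40 KO, although 23 sequences occurred in both libraries.

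**Figure D2:**
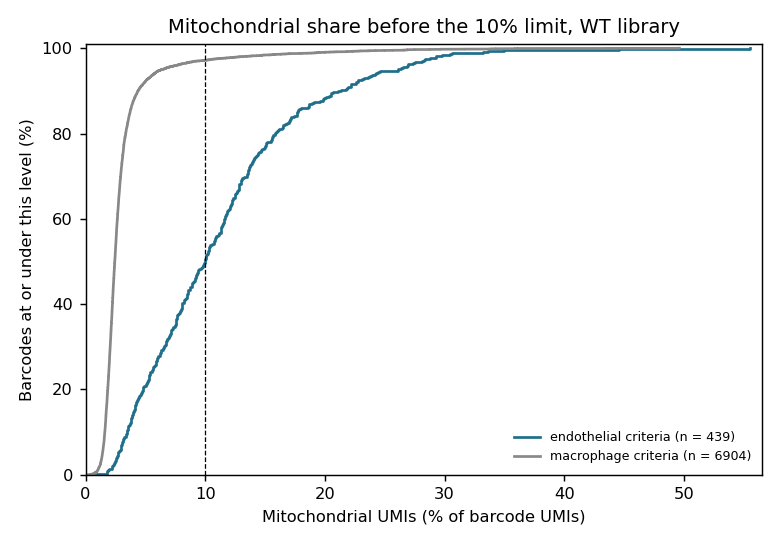
The share of WT barcodes (y axis) at or under each mitochondrial percentage (x axis), for barcodes that met the endothelial criteria (n = 439) or the macrophage criteria (n = 6904) before the mitochondrial limit, which is the dashed line at 10%. The limit left out 218 of the 439 and 195 of the 6904.

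A gene was called measured at 10 CPM or more in the members and higher or lower at 4-fold. For the 175 against macrophage-like barcodes, 1501 of 8787 measured genes (17.1%) were higher and 288 (3.28%) lower, and among genes measured in either class 788 of 9550 (8.25%) were lower. Against fibroblast-like barcodes 769 (8.75%) were higher and, of genes measured in either, 713 of 9811 (7.27%) lower. Over all 221 members, 1074 of 8858 genes (12.1%) were higher than in macrophage-like barcodes, 1 (0.0113%) was lower, and of genes measured in either class 12 of 9150 (0.131%) were lower. Against fibroblast-like barcodes the same counts were 802 (9.05%) higher and 687 of 9844 (6.98%) lower. The median gene of the 175 stood 0.41 higher on the log2 scale than in macrophage-like barcodes, and list medians below are read against that. The rule used this contrast, so these counts describe the members and support nothing.

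Every gene of a pan-endothelial list of 20 was measured in the 175 and higher than in macrophage-like barcodes, with a median log2 ratio of 9.62. Pecam1, the adhesion protein CD31, stood at 1024 CPM in the 175, 202 in the 46 and 9.33 in macrophage-like barcodes, a log2 ratio of the first to the last of 6.78 (6.67 to 6.89). Cldn5 stood at 457, 89.1 and 0.219 CPM, and Esam, another junction protein, at 701, 111 and 0.631 CPM. Both are genes whose macrophage-like level was close to nothing, and in fibroblast-like barcodes they stood at 0.499 and 9.73 CPM. Cldn5 was unevenly spread, with a median of 3.10 and a highest value of 31.7 per 10000 UMIs of a barcode, and was detected in 117 of the 175.

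**Figure D3:**
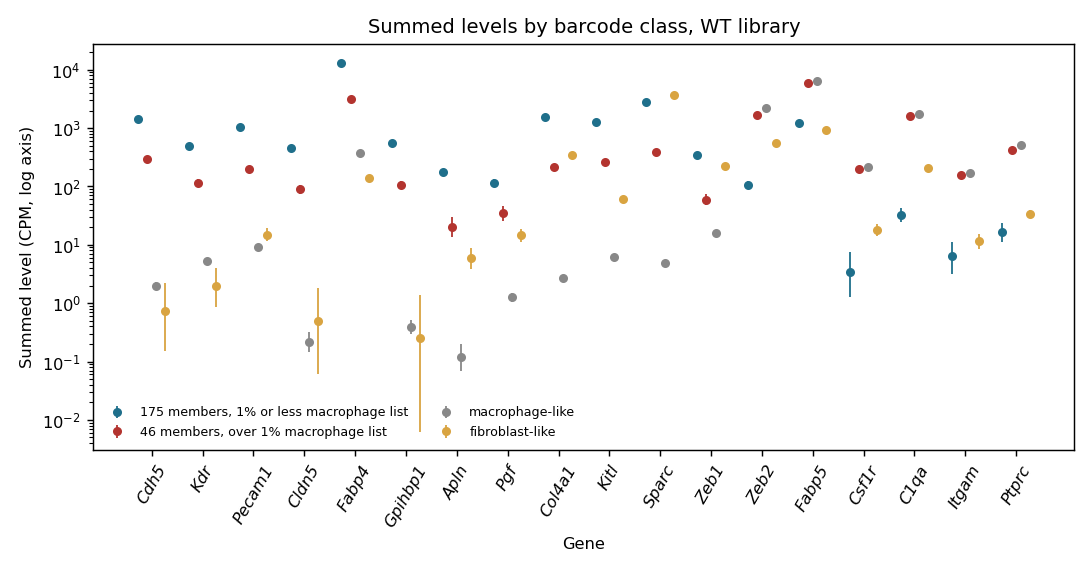
Summed levels in CPM on a log axis (y) for 18 genes (x) in 4 classes of WT barcodes, with exact Poisson 95% intervals as bars. From Cdh5 to Zeb1 the 46 members fall between the 175 and macrophage-like barcodes, while Zeb2, Fabp5 and the immune genes on the right are lower in the 175 than in both. The division of the members used macrophage transcripts, and Csf1r and C1qa helped choose the macrophage-like barcodes.

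Receptors of the growth factor VEGF were high, and its main ligand was not. Flt1 (VEGFR1) stood at 1119 CPM in the 175 and 3.80 in macrophage-like barcodes, with a wide range among members from 0 over a median of 10.1 to 201 per 10000 UMIs. Kdr (VEGFR2), a gene of the rule, stood at 498 and 5.24 CPM, and Flt4, the receptor shared with lymphatics, at 58.0 and 0.121 CPM. The coreceptors differed less, with Nrp1 at 478 and 137 CPM and Nrp2 at 379 and 189 CPM. Vegfa was the member of the list that was lower, at 12.1 CPM in the 175 against 80.8 in the 46, 83.6 in macrophage-like and 52.9 in fibroblast-like barcodes, a log2 ratio to macrophage-like of -2.79 (-3.49 to -2.18). Pgf, a ligand of Flt1, was higher in the 175, at 115 CPM against 1.25.

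In the Tie pathway, 5 of 5 measured genes of 7 were higher. The receptors Tek and Tie1 stood at 185 and 167 CPM and the phosphatase Ptprb, which acts on Tek, at 490 CPM, against 0.413, 0.0890 and 0.421 in macrophage-like barcodes. Angpt2, the ligand released by activated endothelium, stood at 64.4 CPM against 4.45, in 39 of the 175, while Angpt1, the ligand of perivascular cells, stood at 2.87 CPM in the 175 and 20.2 in fibroblast-like barcodes. The 5 Angpt1 UMIs came from 2 members.

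Of 12 Notch pathway genes, 10 were measured and 8 higher. Dll4, the ligand of sprouting tip cells, stood at 157 CPM against 0.332 in macrophage-like barcodes, and the receptors Notch1 and Notch4 at 192 and 69.5 CPM against 24.5 and 0.510. Hes1 and Nrarp, both targets of Notch, stood at 157 and 45.4 CPM against 2.72 and 0.356. Jag1 did not differ beyond its counting interval, at 43.7 against 51.7 CPM (log2 ratio -0.24, -0.59 to 0.08), and Lfng, a modifier of Notch, was lower at 10.3 against 44.5 CPM.

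The apelin pair marked fewer members. Apln, the peptide made by sprouting endothelium, was detected in 42 of the 175 and stood at 178 CPM (158 to 199), with 3 members holding 43.0% of its UMIs. Its receptor Aplnr was detected in 78 members, at 197 CPM, and both together in 24. After thinning, Apln was found in 21 of 170 (12.4%) and Aplnr in 40 of 170 (23.5%), against 1 and 4 of 6591 macrophage-like barcodes, whose thinned depth was the same. In the 46 the CPM were 20.4 and 28.7.

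Capillary genes were widespread in the 175. Of 15 genes on the list, all were measured, 11 were higher and none lower than in macrophage-like barcodes. Gpihbp1, which anchors lipoprotein lipase on the capillary wall, stood at 564 CPM in the 175, 107 in the 46 and 0.397 in macrophage-like barcodes, with a median of 6.27 and a highest value of 41.9 per 10000 UMIs. Aqp1, a water channel, stood at 367 CPM, Cxcl12 at 407, Tcf15 and Meox2, which drive fatty acid uptake, at 188 and 96.0, and Car4 at 71.8, against 0.542 or less each in macrophage-like barcodes. The 4 list genes that were not 4-fold higher, Cd36, Rgcc, Sgk1 and Slc28a2, were also present in macrophage-like barcodes (502, 212, 329 and 30.5 CPM).

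Genes of lipid handling separated along the same line. Fabp4 stood at 13161 CPM in the 175, 3113 in the 46, 370 in macrophage-like and 141 in fibroblast-like barcodes, and ranged among the 175 from 0 over a median of 157 to 659 per 10000 UMIs. Its relative Fabp5 ran the other way, at 1213, 6038, 6482 and 925 CPM in the same order, a log2 ratio of the 175 to macrophage-like of -2.42 (-2.48 to -2.36). Plin2, the coat of lipid droplets, was lower too, at 104 against 1154 CPM. Cd36, the fatty acid transporter, stood at 1129 against 502 CPM and Lpl, the lipase that Gpihbp1 anchors, at 277 against 532 CPM. Neither difference was 4-fold, and the log2 difference of Lpl over all 221 members changed sign when barcodes were weighted equally or thinned.

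Angiogenic and tip genes followed the same direction. Of 18 genes, 17 were measured and 16 higher than in macrophage-like barcodes. Against fibroblast-like barcodes, 12 of the 17 were higher. Besides Apln, Pgf and Dll4, Mcam stood at 267 CPM against 0.413, Trp53i11 at 164 against 1.12, Plxnd1, a semaphorin receptor, at 298 against 43.1, and Esm1, a tip cell proteoglycan, at 28.7 against 0.0567. Esm1 was found in 14 members only. Cxcr4, also of the list, stood at 158 CPM in macrophage-like barcodes, with a log2 ratio of -1.66 (-1.99 to -1.36), under 4-fold lower.

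Counted per barcode after thinning, 126 of 170 members of the low group (74.1%, 66.9 to 80.5%) had 3 or more UMIs of the capillary list and 157 (92.4%, 87.3 to 95.9%) of the angiogenic list. Both lists reached that level in 117, the capillary list alone in 9, the angiogenic list alone in 40, and neither in 4. List genes at 5 CPM or more in macrophage-like barcodes were left out of these counts, which left 11 capillary and 16 angiogenic genes, a limit chosen after the values were seen. Macrophage-like barcodes reached the level in 0 and 3 of 6591, low counts that follow largely from leaving out genes by their level in this class. Fibroblast-like barcodes reached it in 8 (5.59%) and 127 (88.8%) of 143. The angiogenic list holds Sparc and type IV collagen, which fibroblast-like barcodes also carried. Sparc, Col4a1 and Col4a2 had 4868, 2650 and 1442 UMIs in the 175, against 465 for Mcam, 309 for Apln and 200 for Pgf. The angiogenic share thus rests largely on these matrix genes, while after thinning Apln was found in 21 and Pgf in 19 of 170. Unthinned, the counts were 162 and 172 of 175.

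The 40 members that reached the level for the angiogenic list alone were deeper, at a median of 11216 UMIs against 5658 in the 117. Over the 170 thinned members the share of capillary UMIs had a Spearman's rho of 0.72 with Fabp4, -0.49 with total depth and 0.37 with the mitochondrial share, while capillary and angiogenic shares had a rho of -0.13. These barcodes share 1 library, depth and mitochondrial share had a rho of -0.44, and their parts in the pattern were not tested.

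**Figure D4:**
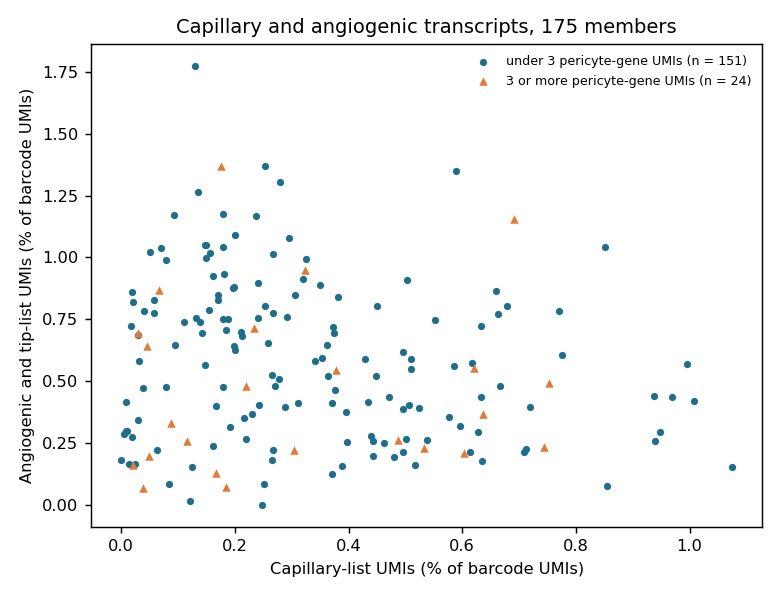
Each point is 1 of the 175 members, with capillary-list UMIs on the x axis and angiogenic and tip-list UMIs on the y axis, both as % of its UMIs before thinning; triangles are the 24 members with 3 or more UMIs of pericyte genes. Capillary shares run up to about 1% and angiogenic shares to under 2%, and members with pericyte transcripts lie among the others. The genes with the most angiogenic-list UMIs were Sparc, Col4a1 and Col4a2.

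Basement membrane genes were high in the 175, many of them also in fibroblast-like barcodes. All 15 were measured, 13 higher than in macrophage-like and 6 higher than in fibroblast-like barcodes. Col4a1 and Col4a2, the chains of the vessel's type IV collagen, stood at 1523 and 829 CPM, against 352 and 159 in fibroblast-like and 2.70 and 1.31 in macrophage-like barcodes. Col18a1, the source of endostatin, stood at 310 CPM against 23.5 and 0.987, and Sparcl1 at 567 against 43.2 and 0.380. Sparc, at 2798 CPM, stood below the fibroblast-like level of 3747, and Fn1 was below both, at 293 against 1720 and 606 CPM.

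Arterial genes were present in a part of the members. Of 16, 14 were measured and 14 higher than in macrophage-like barcodes, and 61 of 170 thinned members (35.9%) had 3 or more UMIs of the list, against 2 of 6591 macrophage-like and 102 of 143 fibroblast-like barcodes (71.3%). Efnb2, the arterial ephrin, stood at 224 CPM in 111 of the 175, and Sox17, an arterial transcription factor, at 180 CPM in 89, against 2.05 and 0.146 in macrophage-like barcodes. Gja5 and Gja4, connexins of arterial endothelium, were rarer, at 32.8 CPM in 21 members and 82.8 CPM in 40, and Gja5 and Sox17 occurred together in 15. Mgp and Fbln2 of the same list were higher still in fibroblast-like barcodes (2177 and 948 CPM, against 244 and 91.4).

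Genes of veins, endocardium and lymphatics were examined next. Nr2f2, the venous regulator, was detected in 59 members at 105 CPM and Vwf, the clotting factor stored in larger vessels, in 36 at 93.1 CPM, with both in 19. Selp, the P-selectin of veins, was detected in 13, 3 of which held 72.4% of its UMIs. Of the 10 lymphatic genes, Prox1, their master regulator, was found in 9 members, Ccl21a in 2 and Mmrn1 in 3, and a single member held 81 of the 87 Ccl21a UMIs. Npr3, which marks endocardium, was found in 7 members at 8.05 CPM, under the level called measured, while Plvap, the protein of fenestrae and of the endocardium, stood at 130 CPM in 35. After thinning, 34 of 170 members (20%) had 3 or more UMIs of the venous list, 14 (8.24%) of the endocardial and 7 (4.12%) of the lymphatic list. The limit of 5 CPM in macrophage-like barcodes left 7 of 12 venous, 9 of 12 endocardial and 8 of 10 lymphatic genes for these counts. The arterial count used all 16 genes of its list, so the shares are not like for like. Unthinned, the same venous genes had 3 or more UMIs in 127 of the 175 and the arterial list in 121.

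Endothelial transcription factors split by how far macrophages share them. Of 21, 20 were measured, 12 higher and none lower than in macrophage-like barcodes. The SOXF factors Sox7, Sox17 and Sox18 stood at 213, 180 and 148 CPM against 0.186 or less, and Erg, the ETS factor that keeps endothelial identity, at 172 against 0.688. Ets1 and Epas1, the hypoxia-inducible factor of endothelium, stood at 517 and 521 CPM against 5.63 and 9.25. Fli1, Elk3, Ets2, Lmo2, Foxo1, Hhex and Klf4 were under 4-fold, and Klf2, induced by flow, stood at 1995 against 531 CPM, a log2 ratio of 1.91 (1.86 to 1.96).

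**Figure D5:**
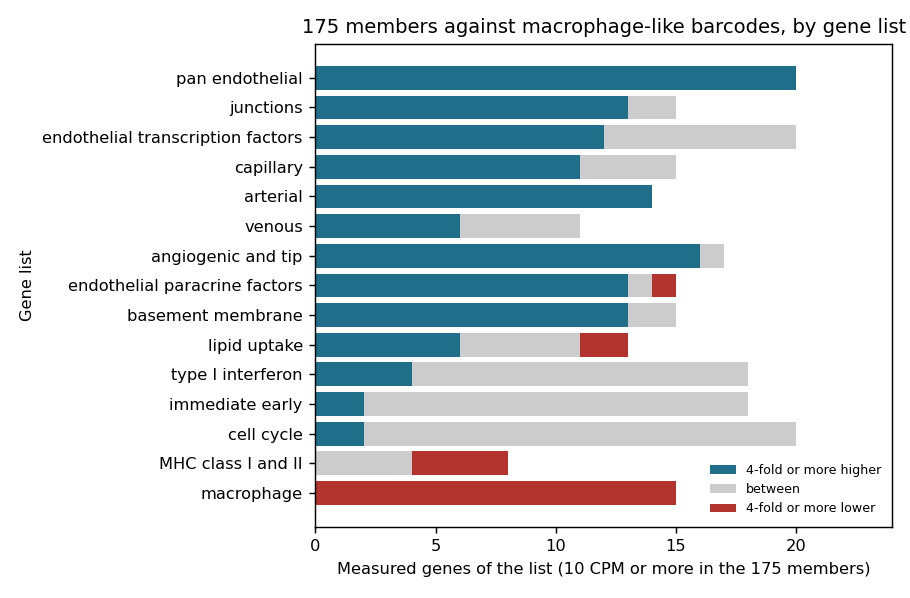
For each gene list, the number of measured genes that were 4-fold or more higher, between, or 4-fold or more lower in the 175 members than in macrophage-like barcodes. Most endothelial lists have their larger part on the higher side (lipid uptake 6 of 13), and interferon, immediate early and cell cycle genes mostly between. On the lower side are 4 of 8 MHC genes and 15 of 15 macrophage genes. The macrophage count is largely set by selection, since the 175 were divided off by this list and macrophage-like barcodes chosen by macrophage genes. Over all members, before that division, 0 of 20 macrophage genes were 4-fold or more lower.

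Paralogs of BMP signalling and of mesenchymal regulators divided between the 175 and macrophage-like barcodes. Id1 and Id3, targets of BMP, stood at 491 and 634 CPM in the 175 against 14.6 and 32.6 in macrophage-like barcodes, while Id2 ran the other way at 92.5 against 636. Zeb1 stood at 343 CPM in the 175, 59.7 in the 46 and 15.6 in macrophage-like barcodes, and Zeb2 at 107, 1682 and 2195. Among the receptors, Eng, an endothelial coreceptor, stood at 390 against 7.58 CPM, Bmpr2 at 357 against 73.5, and Acvrl1 at 70.7 against 22.6. The ligands Bmp6 and Bmp4 stood at 143 and 39.7 CPM against 0.194 and 0.0405, and Tgfb1 at 107 against 150. Of the 16 measured genes of the BMP and TGF-beta list, 10 were higher and 1, Id2, lower than in macrophage-like barcodes. Compared with fibroblast-like barcodes, 2 were higher, 1 lower and 13 between. The median log2 ratio to that class was 0.70, against 0.13 over all genes.

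Genes of endothelial to mesenchymal transition were compared with both classes. Of 14 measured, 9 were 4-fold higher, 2 lower and 3 between against macrophage-like barcodes, with a median log2 ratio of 3.92. Against fibroblast-like barcodes 0 were higher, 7 lower and 7 between, with a median of -2.02, beside 8.75% of all genes higher and 7.27% lower (measured in either class). Postn, a matrix protein of scar fibroblasts, stood at 14.9 against 904 CPM and Cdh2 at 15.5 against 148. Snai1 and Snai2 were near the fibroblast-like level, at 34.5 against 27.7 and 16.7 against 17.7 CPM. Acta2 and Tagln, of smooth muscle, stood at 251 and 356 CPM, but a single member held 57.0% and 62.0% of their UMIs.

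Pericyte transcripts accompanied endothelial ones in a small set. Of the 175, 24 members (13.7%, 8.99 to 19.7%) had 3 or more UMIs of Pdgfrb, Rgs5, Kcnj8, Abcc9, Cspg4 and Notch3, against 10 of 6709 macrophage-like and 75 of 149 fibroblast-like barcodes. These counts were not thinned, and fibroblast-like barcodes were deeper, at a median of 22435 UMIs against 6321 in the 175. For 13 genes of a pericyte and smooth muscle list, 17 of 170 thinned members (10%) had 3 or more UMIs. The thinned counts were 22 of 143 fibroblast-like (15.4%) and 1 of 6591 macrophage-like barcodes. In the 24 members, Rgs5 stood at 3042 CPM against 2.05 in the other 151 members, and Tagln at 2133 against 15.7. Rgs5 is one of the genes that define the 24, so its contrast follows from the definition. For Tagln, 3 members held 92.4% of the UMIs of the 175. Fabp4, which the rule did not use, stood at 12109 CPM in the 24 against 13363 in the other 151. Cdh5 stood at 1149 against 1485 CPM, but it is a rule gene, so its presence in the 24 follows from the selection. The median depth was 8386 against 5953 UMIs. Scrublet marked 2 of the 26 such members among all 221. What these barcodes are was not tested, and the set was defined after its values were seen.

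Most junction genes and part of the caveolar genes were higher than in macrophage-like barcodes. Of 17 junction genes, 15 were measured and 13 higher than in macrophage-like barcodes; Magi1, a junction scaffold, stood at 1317 against 1.66 CPM, Tjp1 at 289 against 0.639, and F11r at 210 against 16.7. Ocln and Cgn, of tighter barriers, stood at 5.17 and 0 CPM. Of the 10 genes of caveolae and transcytosis, 9 were measured, 6 were higher and 3 (Ehd4, Dab2 and Tfrc) were under 4-fold. Cav1 stood at 1268 against 5.90 CPM and Cavin2 at 502 against 0.324. Mfsd2a, the lipid transporter of the blood-brain barrier, was at 0.

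Most measured genes for secreted factors that act on other cells were higher in the 175 than in macrophage-like barcodes. Of 22 genes in the table, 15 were measured, 13 higher and 1 lower than in macrophage-like barcodes. Compared with fibroblast-like barcodes, 8 were higher, 2 lower and 5 between. For 16 genes of the list, 130 of 170 thinned members (76.5%) had 3 or more UMIs, against 110 of 143 fibroblast-like barcodes (76.9%). Kitl, the stem cell factor, stood at 1289 CPM in the 175, 266 in the 46, 6.19 in macrophage-like and 60.4 in fibroblast-like barcodes, and was detected in 160 of the 175. Pdgfb, which recruits pericytes, stood at 221 against 20.5 and 3.74 CPM, and Igfbp3 at 418 against 0.162 and 14.5, with 34.0% of its UMIs in 1 member. Igf1 was the lower one, at 25.3 CPM against 191 in macrophage-like barcodes, and Nrg1, a growth factor for heart muscle, was found in 4 members only, 1 of which held 59.6% of its UMIs.

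Genes of leukocyte entry differed in direction. Of 15 measured, 9 were higher and 1 lower than in macrophage-like barcodes. Icam2, present on resting endothelium, stood at 329 CPM (log2 ratio 5.78) and Icam1, induced by inflammation, at 245 against 82.8. The selectin Sele and Vcam1 were low in number, found in 12 and 40 of the 175 at 38.5 and 58.0 CPM. Ccl2, the monocyte attractant, was lower at 54.0 CPM, against 1144 in macrophage-like and 1362 in fibroblast-like barcodes, and Cxcl1 stood at 115 against 303 and 1888. Cxcl9, which draws T cells, stood at 97.7 against 3.10 and 0.749 CPM and was detected in 55 members.

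Most interferon-induced genes stood within 4-fold of the macrophage-like level. Of 18 measured, 4 were 4-fold higher and none lower, beside 17.1% of all genes higher, and the median log2 ratio was 1.05 against 0.41 over all genes. The 4 were Iigp1, a GTPase against intracellular parasites, at 276 against 1.10 CPM, Gbp7 at 98.8 against 13.1, Ifi44 at 56.9 against 1.89 and Gbp4 at 34.5 against 0.858. Isg15 stood at 140 against 101 CPM, and Irf7 at 45.4 against 61.4, both under 4-fold.

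Antigen presentation differed by class of MHC. Class I genes were level, with H2-K1 at 910 against 904 CPM (log2 ratio 0.01, -0.06 to 0.08) and B2m at 986 against 978, and over all 221 members the sign for H2-K1 differed under median-of-ratios scaling and 4 other limits of the rule. Class II genes were lower, with H2-Aa at 43.7 against 679 CPM and Cd74 at 69.5 against 1281, and a single member held 79.3% of the Cd74 UMIs. Cd40, the gene in the label of the other library, was detected in 22 of the 175 at 15.5 CPM against 18.1 in macrophage-like and 5.24 in fibroblast-like barcodes, a log2 ratio to macrophage-like of -0.22 (-0.83 to 0.32) whose sign over all members changed with the scaling. After thinning it was found in 6 of 170 (3.53%), against 246 of 6591 macrophage-like barcodes (3.73%). Of the CD40 pathway list 13 of 15 genes were measured, and 0 of the 13 were 4-fold higher or lower in the 175 than in macrophage-like barcodes. Over all measured genes 17.1% were higher and 3.28% lower, so few calls would be made among 13 genes in any case. The list had a median log2 ratio of -0.70, against 0.41 over all genes.

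Immediate early and stress genes, which dissociation of tissue can induce, were mostly within 4-fold between the classes. Fos stood at 2270 CPM in the 175 and 1166 in macrophage-like barcodes, Jun at 1903 against 551 and Egr1 at 1192 against 327, none of them 4-fold. The heat shock genes Hspa1a and Hspa1b were 4-fold or more higher, at 692 against 152 and 400 against 60.5 CPM. Their spread was wide, Hspa1a running from 0 over a median of 1.89 to 133 per 10000 UMIs.

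Mki67 and Top2a, of dividing cells, were detected in a small number of members. Mki67 was found in 18 of the 175 and Top2a in 16, both in 13, and the 3 highest members for each gene held 48.3% of the Mki67 and 60% of the Top2a UMIs. They stood at 84.5 and 109 CPM against 31.5 and 33.8 in macrophage-like and 84.8 and 115 in fibroblast-like barcodes. After thinning, Mki67 was found in 6 of 170 members (3.53%) and 3.82% of macrophage-like barcodes. All 20 genes of the list were measured, with 2 (Cenpf and Tyms) 4-fold higher than in macrophage-like barcodes, beside 17.1% of all genes higher. Compared with fibroblast-like barcodes, 0 were higher, 0 lower and 20 between. Other genes of the list were widespread, with Tubb5 in 157 of the 175, Hmgb2 in 92 and Pcna in 86. Unthinned, 131 of the 175 had 3 or more UMIs of the list. After thinning, 59 of 170 members (34.7%) did, against 1817 of 6591 macrophage-like (27.6%) and 72 of 143 fibroblast-like barcodes.

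Among the genes in no list, those with the highest ratio of all 221 members to macrophage-like barcodes were Cdh13, Ldb2, Car8, Galnt18, Pdgfd, Ptprg, Shank3, Prex2, Ccdc85a and Ly6c1. Cdh13, an adiponectin-binding cadherin, stood at 733 CPM in all members against 0.550, a log2 ratio of 10.38 (10.03 to 10.75), and in 188 of the 221. Ly6c1, a surface protein of mouse capillaries, stood at 640 against 0.850 CPM in 194. Against fibroblast-like barcodes the leading genes were Dach1, Ccdc85a, Ctla2a, Clic5, Gimap6 and Cdh13. Dach1, a transcription factor of coronary growth, stood at 389 CPM against 0.499 in fibroblast-like and 11.3 in macrophage-like barcodes, and Gimap6 at 270 CPM, at least 361-fold higher than in fibroblast-like barcodes, where it had 0 UMIs (floor of 3 counts over the class).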

How the data were processed

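The authors deposited UMI counts as 2 gene-by-barcode matrices of 32285 genes. Their headers name Cell Ranger 7.0.1, and the submitters' processing notes name Cell Ranger, STAR and mm10. Other settings are not stated in the sources used. The deposited WT counts held 10624 barcodes, 139343516 UMIs and a median of 9354 UMIs per barcode.

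Counts were summed over the barcodes of a class, scaled to CPM and given with exact Poisson intervals, and ratios with exact conditional intervals, at 95% (Python 3.11.15, numpy 2.4.6, scipy 1.17.1). The scripts were tested on simulated data. With 1 library per group there is no test, and barcodes are not replicates. Shares of barcodes were computed as deposited and after thinning to 2000 UMIs, which left out 5 members. A ratio to a class at 0 counts used 3 counts as its floor. No doublets were removed from the main values; scanpy 1.11.5 ran Scrublet for an alternative that leaves out the highest scores, at 0.8% for each 1000 barcodes.

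The members and the 42 gene lists were chosen with earlier results of these data known. Named genes were the rule genes and given markers, list members by level or role, and the 20 and 15 genes in no list with the highest ratio at 50 CPM or more. No cluster was built. The list restriction to genes under 5 CPM in macrophage-like barcodes, the pericyte set and the alternatives without pericyte-transcript members or without the deepest member were chosen after seeing the data. Alternatives changed each limit of the rule, the scaling, the thresholds and the thinning.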

Additional observations from a re-analysis of the deposited data

Results flagged for a closer look

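Barcodes above the mitochondrial limit, which enter none of the comparisons, also carried endothelial transcripts. Of the 983 WT barcodes that passed the UMI and gene minimum but held over 10% mitochondrial UMIs, 218 (22.2%, 19.6 to 24.9%) met the endothelial criteria. That limit left out 218 of 439 barcodes that met the criteria (49.7%), against 195 of 6904 with the macrophage criteria (2.82%) and 21 of 170 with the fibroblast criteria (12.4%). In the library labelled CD40 KO it left out 2 of 13.

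The 218 had a median of 2829 UMIs and 14.4% mitochondrial UMIs, and a macrophage-list median of 0.161%, with a pan-endothelial median of 0.894% against 0.903% in the 175 members with few macrophage transcripts. Capillary and lipid genes stood higher than in the 175: Fabp4 at 20057 CPM, Cd36 at 2420 against 1129, Rbp7 at 396 against 181, Aqp7 at 160 against 55.2, and Id1 at 987 against 491. Sprouting, matrix and division genes stood lower: Apln by a log2 ratio of -3.15 (-4.00 to -2.41) from 178 CPM in the 175, Pgf at 28.0 against 115, Sparc at 1398 against 2798 and Top2a by a log2 ratio of -2.77, with 60% of the Top2a UMIs of the 175 in 3 members. Endothelial-like barcodes on both sides of the limit thus differed in these genes, and the parts of depth and mitochondrial share in this were not tested.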

How the results depend on the processing

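No paired analysis was possible because each group is 1 library and no test was made. Values are over all 221 members; main values were a member share of 2.73%, 1074 and 802 genes higher than in macrophage-like and fibroblast-like barcodes, and 62.5, 79.63, 29.17 and 4.63% of thinned members with 3 or more UMIs of the capillary, angiogenic, arterial and sort-gate lists. With 3 rule-gene UMIs the capillary share was 55.42%; with 10 the member share was 2.199% and the angiogenic share 85.31%. A 5% mitochondrial limit gave a member share of 1.236% and 37.93% capillary, 63.22% angiogenic and 9.195% gate; a 20% limit gave 4.485%, 70.79%, 85.11% and 1.966%. Without high Scrublet scores the capillary, angiogenic and gate shares were 71.59, 90.91 and 1.705%. Without members above 1% macrophage-list UMIs the capillary, angiogenic, arterial and gate shares were 74.12, 92.35, 35.88 and 0%; without thinning 90.95, 97.74, 66.52 and 21.27%; from 1 UMI 82.41, 92.59, 60.19 and 19.91%; and from 5 UMIs 44.91, 67.59, 13.89 and 1.389%. At 50 CPM the gene counts were 455 and 412, and at 2-fold 1821 and 1742. Of 782 alternative log2 ratios for 46 genes over 17 settings, 770 kept their sign; the others were of H2-K1, Lpl and Cd40. Of the 782, 366 lay outside the counting interval of the main value. The causes were not tested. With 1 library, spread between animals is unknown, and the depth limits shares of low transcripts.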

Other observations

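Some genes that mark other cell types were carried by many members. Ebf1, used as a B cell factor, stood at 919 CPM in the 175 members and 653 in fibroblast-like barcodes against 3.34 in macrophage-like ones, and was found in 160 of the 175, while Cd79a, Cd79b, Ms4a1 and Pax5 were at 0 in them. Fscn1 and Zbtb46, on the list of dendritic cells, stood at 263 and 56.3 CPM against 2.13 and 5.49, with Flt3, Xcr1 and Siglech at 0. Wt1, the only measured gene of the mesothelial list, stood at 98.3 CPM in 76 of the 175 against 0.251 in macrophage-like barcodes, and the other 6 genes were at 0. Of 10 T and NK cell genes, 9 were at 0, and Trac had 1.72 CPM.

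Of 14 receptors and bridging proteins for the uptake of dying cells, 11 were measured in the 175. Against macrophage-like barcodes 3 were 4-fold higher, 2 lower and 6 between, beside 17.1% of all measured genes higher and 3.28% lower. The median log2 ratio was 0.04 against 0.41 over all genes. Against fibroblast-like barcodes 2 were higher and 3 lower, beside 8.75% of all genes higher and 7.27% lower (measured in either class). Mfge8 stood at 179 CPM against 16.8 in macrophage-like barcodes, Pros1 at 117 against 17.1 and Scarf1 at 43.7 against 4.11. Mertk stood at 46.6 against 59.4 CPM, Lrp1 at 13.2 against 293 and Mrc1 at 22.4 against 331.

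Transcripts of heart muscle and red cells appeared in small numbers. Myl2 stood at 36.8 CPM and Tnnt2 at 24.1 in the 175, found in 33 and 32 of them, against 2.91 and 2.82 in macrophage-like barcodes. Hbb-bs stood at 556 CPM, of which 1 member held 68.0%.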
